A study of Mus musculus with 8 samples.

Results

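Lrg1, Hp, Lcn2, Orm1, Orm2, Serpina3n, Lbp, Cp, Trf and Itih4 encode secreted acute phase proteins, and their transcripts were measured here in mouse mammary tumours with floxed or wild-type Stat3. The 10 genes were taken by name, and every non-control probe that the array files assign to one of them was used. That gave 10 genes, with 1 probe each, of 28786 genes on the array. All 10 probes passed the filter on dim signals, which kept 21557 genes in all.

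The acute phase response is the change in plasma proteins that follows infection, injury or a tumour. In the liver, interleukin 6 and related cytokines act through the shared receptor subunit gp130 and the transcription factor STAT3, while interleukin 1 acts mainly through NF-kappaB and C/EBP factors. Epithelial cells, adipocytes, macrophages and neutrophils make many of the same proteins outside the liver, and the mammary gland secretes several of them in milk and during involution.

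The tumours came from virgin females carrying MMTV-NIC, in which the mouse mammary tumour virus promoter drives an activated Neu (ErbB2) receptor and Cre recombinase together in mammary epithelium. Tissue was taken 6 weeks after a tumour was first palpated in both groups. The floxed group (Stat3flx/flx/NIC) was 5 single tumours and the wild-type group (Stat3wt/wt/NIC) was 3 pools of 5 tumours each, so genotype and pooling cannot be told apart. Cre acts only in cells that express the transgene, and the stroma of a floxed tumour keeps Stat3. Every array carried Cy5-labelled tumour RNA against the same Cy3-labelled universal mouse reference RNA, with no dye swap. Values below are log2 ratios of tumour over reference, and a difference is the floxed mean minus the wild-type mean of those ratios. Because whole tumours were used, fewer cells of a type and less RNA per cell cannot be told apart. Nothing in the labels says how the floxed animals were related, so each p-value below speaks only for the variation among these 8 samples.

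The median tumour-channel signal was 642 to 891 intensity units over a median local background of 47.0 to 58.0, and an array detected between 71.7% and 77.3% of its probes by the scanner's test against background. Stat3 itself, by the brighter of its 2 probes, lay between -1.48 and -1.12 in the floxed tumours and between 0.12 and 1.27 in the pools, a difference of -2.05 (SE 0.24, adjusted p = 0.148 by limma with Benjamini-Hochberg adjustment). Whether that probe lies in the deleted part of the gene was not determined. The arrays sat on 3 slides, and each slide held both groups. Pool 3 stood apart in several lists of cell type markers: its mean ratio over 15 milk protein and secretory genes was 4.84, against 2.64 to 3.73 in the floxed tumours and 3.23 in the lowest pool, and over 14 luminal epithelial markers 4.19, against 3.15 to 3.41. Epcam, an epithelial adhesion molecule, was between 3.44 and 4.53 on all 8 arrays. Of 18 hepatocyte markers 7 were measured, and Alb, the main plasma protein of liver, was above background on 1 array, with Apoa1, Ttr, Apoa2 and Fga on 0. Ahsg, Serpina1b and Tat from the same list were above background on all 8 arrays and Pck1 on 7, with Ahsg at 3.04 to 6.00.

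None of the 10 genes passed the test for a group difference, and 1 of them stood well apart in size. Lrg1 was 8.83-fold lower in the floxed tumours, with all 5 floxed tumours below all 3 pools. Orm2 was lower by a smaller amount, 1.41-fold, with 4 of 5 floxed tumours below all pools. The other 8 genes also overlapped between groups, 6 with lower and 2 with higher floxed means. At an adjusted p under 0.05 limma called 0 of the 10 genes, and 0 of all 31302 probes tested (0%), where the smallest adjusted p was 0.0554. At an unadjusted p under 0.05, 2 of the 10 genes were lower and 0 higher, beside 925 lower probes (2.96%) and 582 higher probes over the array. The groups did not overlap, with the floxed tumours lower, for 1 of the 10 genes and for 1.93% of all probes. The median difference over the 10 genes was -0.48, and over all probes 0.0049. Without pool 3 the median over the 10 genes was -0.14, and 389 probes in place of 925 were lower at the unadjusted threshold.

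**Figure D1:**
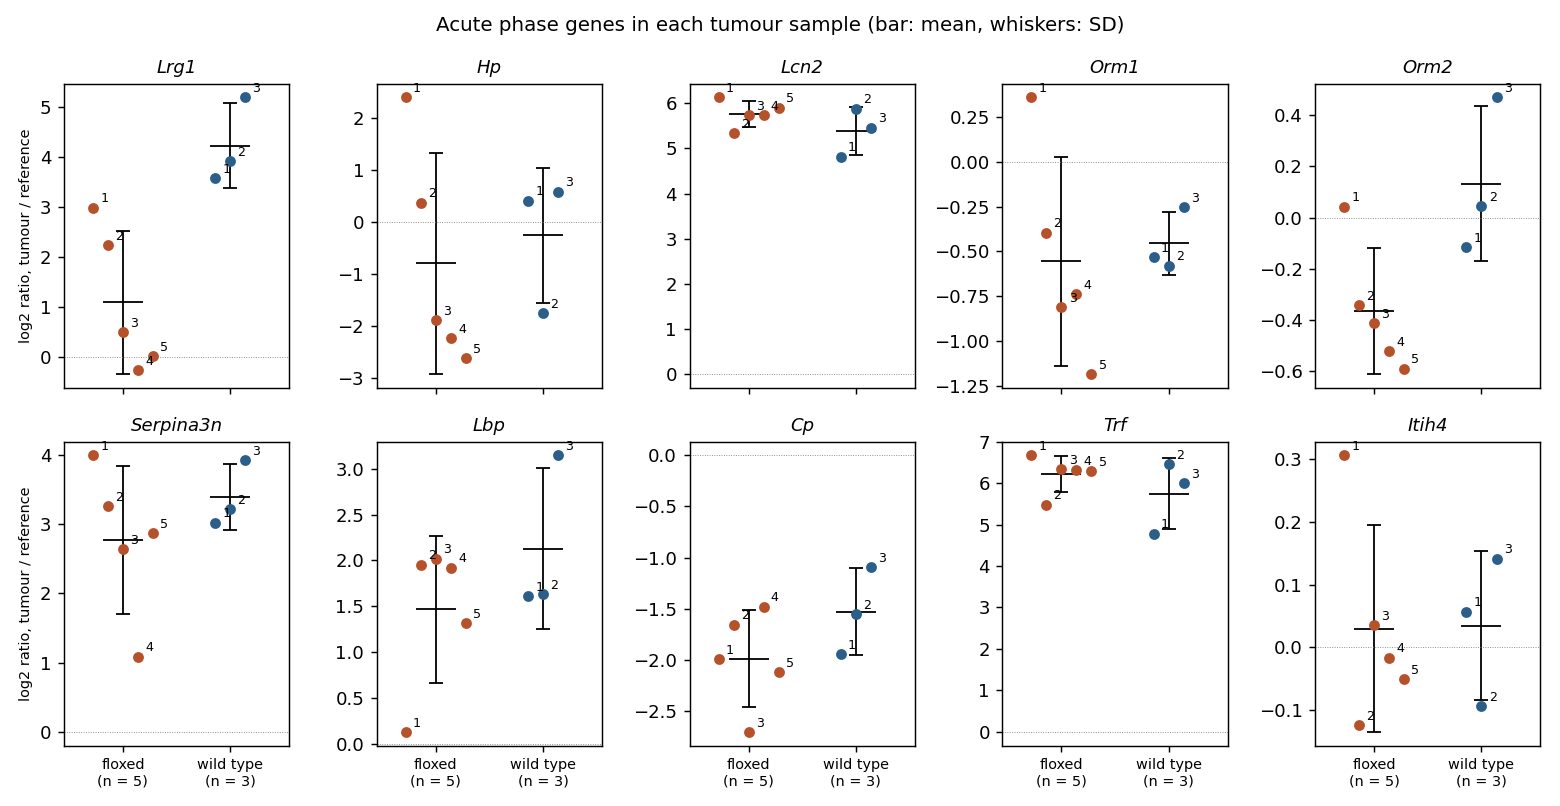
Log2 ratio of tumour over reference for each of the 10 genes, with 1 point per sample (numbers are the replicate names), a bar at the group mean and whiskers of 1 SD; each panel has its own vertical axis. The groups are separate only for Lrg1, where the 5 floxed tumours lie between -0.27 and 2.99 and the 3 pools between 3.58 and 5.19.

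LRG1 is a leucine-rich glycoprotein of plasma that binds the TGF-beta co-receptor endoglin and can shift endothelial TGF-beta signalling towards the receptor ALK1. Its ratio was 2.99, 2.23, 0.49, -0.27 and 0.01 in floxed tumours 1 to 5, and 3.58, 3.92 and 5.19 in pools 1 to 3. Floxed tumours 1 and 2 were the closest to the pools, floxed tumours 3, 4 and 5 were near the reference level, and pool 3 was the highest of the 8 samples. The group means were 1.09 ± 1.44 (SD, n = 5) and 4.23 ± 0.85 (SD, n = 3). The difference was -3.14 (SE 0.76, 95% interval -4.86 to -1.42), with an unadjusted p of 0.00247 and an adjusted p of 0.922 by limma. By unadjusted p the probe was 57th of 31302. The raw tumour-channel signal ran from 625 intensity units in floxed tumour 5 to 79050 in pool 3, over a local background of 40 to 60. On 2 of the 8 arrays the Lrg1 reading came from a low-gain scan that the scanner adds for bright spots, so the ratios mix scans. Any effect of that was not tested.

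The difference in Lrg1 kept its sign within each slide. It was -3.84 on the slide of pool 3 with floxed tumours 2 and 3, -3.71 on the slide of pool 1 with floxed tumours 4 and 5, and -0.93 on the slide of pool 2 with floxed tumour 1. With 1 sample left out at a time it ran from -3.62 without floxed tumour 1 to -2.66 without pool 3. The adjusted p over the settings tried ran from 0.437, without pool 2, to 1.00.

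Among the partners of LRG1, Eng, which encodes endoglin, had a difference of 0.32 (SE 0.27). Acvrl1, which encodes ALK1, was between 1.97 and 2.37 in the floxed tumours and was 2.34, 2.42 and 3.42 in the pools, a difference of -0.59 (SE 0.25, adjusted p = 0.922 by limma). For Acvrl1 pool 3 was the highest sample, pool 2 also lay just above all 5 floxed tumours, and pool 1 lay inside their range.

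The reference channel carried the same RNA on every array, and its spread is given here. It was read from the same spot as the tumour channel, so that spread is not a measure apart from the tumour. For the Lrg1 probe the reference-channel log2 intensity was 9.49 to 9.89 on the arrays of floxed tumours and 10.15, 10.64 and 11.09 on those of pools 1, 2 and 3. Its SD of 0.55 over the 8 arrays was at the 99.5th percentile of the kept probes, whose median SD was 0.075. The reference channel was thus higher where the tumour channel was higher, and the tumour channel alone gave a larger difference, -4.06. The cause of that joint movement was not tested.

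The probe sequence and the RefSeq promoter of Lrg1 are shown because this gene had the largest difference of the 10. The probe aligns to the minus strand at chr17:54278087-54278146 (mm7, the build in the file headers) in 1 unbroken block, and its first 30 bases are given. The promoter is the 250 bases before the RefSeq start (GRCm38.p6 table), read on the strand of the gene.
Lrg1 probe, first 30 bases: caatgtggtcccatgtcagtgtgcagattc
Lrg1 promoter: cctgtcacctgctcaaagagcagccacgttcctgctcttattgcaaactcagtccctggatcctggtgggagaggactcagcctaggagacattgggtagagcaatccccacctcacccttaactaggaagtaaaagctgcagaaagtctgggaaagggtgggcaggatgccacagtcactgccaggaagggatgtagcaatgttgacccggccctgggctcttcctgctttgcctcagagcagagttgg

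The orosomucoids Orm1 and Orm2 are alpha-1-acid glycoproteins, plasma lipocalins that carry drugs and dampen immune activation. They are neighbouring, closely related genes, and whether either probe also binds the other transcript was not tested. Orm2 was 0.04, -0.34, -0.41, -0.52 and -0.59 in floxed tumours 1 to 5, and -0.12, 0.05 and 0.47 in pools 1 to 3. Floxed tumour 1 lay inside the range of the pools and the other 4 lay below it. The group means were -0.36 ± 0.25 (SD, n = 5) and 0.13 ± 0.30 (SD, n = 3), a difference of -0.50 (SE 0.20, 95% interval -0.94 to -0.05, unadjusted p = 0.0318, adjusted p = 0.922 by limma). Within slides it was -0.85 with pool 3, -0.44 with pool 1 and -0.0034 with pool 2, and it was -0.33 without pool 3. The raw tumour signal of Orm2 was 110 to 273 intensity units over a background of 49.0 to 78.0, and 4 of 5 floxed arrays were well above background, so these ratios rest on a dim spot.

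Orm1 was 0.36, -0.40, -0.81, -0.74 and -1.19 in the floxed tumours and -0.53, -0.58 and -0.25 in the pools. The floxed tumours spanned both sides of the pools, with tumour 1 above all of them and tumours 3, 4 and 5 below. The difference was -0.10 (SE 0.31, 95% interval -0.80 to 0.60, adjusted p = 0.980 by limma), and its sign turned to 0.06 without floxed tumour 5 and to 0.0022 without pool 3. Its raw tumour signal, 103 to 320 units, was also dim, and 4 of 5 floxed arrays were well above background.

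The Orm1 probe joins sequence over 608 bases of the genome at chr4:62779145-62779752 (mm7, plus strand) and so crosses an intron, while the Orm2 probe lies in 1 block at chr4:62797641-62797700 (mm7, plus strand). In the Orm2 promoter the capitals mark TTGCGCAA, a match to the C/EBP pattern TTGCNNAA that reads the same on both strands, 120 to 113 bases before the start.
Orm1 probe: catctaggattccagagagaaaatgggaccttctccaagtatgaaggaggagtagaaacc
Orm2 probe, first 30 bases: tgatagtcttgaagatgcatggggccttca
Orm2 promoter: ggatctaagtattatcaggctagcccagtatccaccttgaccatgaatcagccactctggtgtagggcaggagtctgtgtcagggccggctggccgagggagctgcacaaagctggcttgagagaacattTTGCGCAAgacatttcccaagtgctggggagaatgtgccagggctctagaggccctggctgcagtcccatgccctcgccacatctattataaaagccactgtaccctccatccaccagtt

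Haptoglobin, the product of Hp, binds free haemoglobin for clearance through the receptor CD163. Hp varied more than any other of the 10 genes among the floxed tumours: it was 2.40, 0.38, -1.88, -2.23 and -2.61 in tumours 1 to 5, and 0.41, -1.75 and 0.58 in pools 1 to 3. Floxed tumour 1 was the highest of the 8 samples and floxed tumours 3, 4 and 5 the lowest, so the groups overlapped fully. The means were -0.79 ± 2.13 (SD, n = 5) and -0.25 ± 1.30 (SD, n = 3), and the difference was -0.54 (SE 1.12, 95% interval -3.08 to 2.00, adjusted p = 0.974 by limma). It ran from -1.34 without floxed tumour 1 to -0.08 without floxed tumour 5. Within slides it was -2.83 with pool 1, -1.34 with pool 3, and 4.15 with pool 2, where floxed tumour 1 was the only floxed sample. Cd163, the haptoglobin receptor of macrophages, was between 1.48 and 3.19 in the floxed tumours and between 1.97 and 3.37 in the pools, a difference of -0.55 (SE 0.47).

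Markers of several cell types were high in the same floxed tumours as Hp and Orm1. Adipocytes make haptoglobin and orosomucoid, and the mammary fat pad surrounds these tumours. Of 14 adipocyte markers 11 were measured. Their mean ratio, relative to the wild-type mean, was 1.35, 0.52, -0.64, -1.01 and -0.75 in floxed tumours 1 to 5, and 0.47, -0.01 and -0.46 in pools 1 to 3. Adipoq, which encodes the adipocyte hormone adiponectin, was 4.18, 3.17, 0.48, -0.65 and -0.24 in the floxed tumours and 2.75, 1.84 and 0.14 in the pools. Floxed tumours 1 and 2 were thus the highest floxed samples for Hp, Orm1, Orm2, Lrg1, Serpina3n and the adipocyte markers alike, while pool 3 was the lowest pool for the adipocyte markers and the highest for those 5 genes.

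Other marker lists had floxed tumours 1 and 2 as the highest of their group and, unlike the adipocyte markers, pool 3 as the highest pool. The mean ratio over 16 macrophage markers was 1.79 and 1.92 in floxed tumours 1 and 2, 0.85 to 1.39 in the other 3, and 1.39, 1.09 and 1.98 in pools 1 to 3. Over 15 endothelial markers it was 2.64 and 2.83 in floxed tumours 1 and 2, 2.02 to 2.55 in the other 3, and 2.20, 2.08 and 2.81 in the pools. Over 14 fibroblast markers it was -0.85 and 0.52, -2.12 to -1.05, and -1.18, -1.48 and -0.86 in the same order. Over the 7 measured hepatocyte markers it was 1.66 and 1.32, 0.69 to 1.10, and 1.21, 0.97 and 1.93. The neutrophil, luminal and basal lists had the same order of means. The luminal means were close, 3.41 and 3.32 in floxed tumours 1 and 2 against 3.15 to 3.28. By the luminal median relative to the wild-type mean, floxed tumour 2 (-0.24) lay below floxed tumours 3 (-0.075) and 4 (-0.16). The milk protein list, with floxed tumour 4 at 3.60 and tumour 2 at 2.94, and the skeletal muscle list, highest in floxed tumour 5, lacked this order. The part of any of these cell types in the values of the acute phase genes was not tested.

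**Figure D2:**
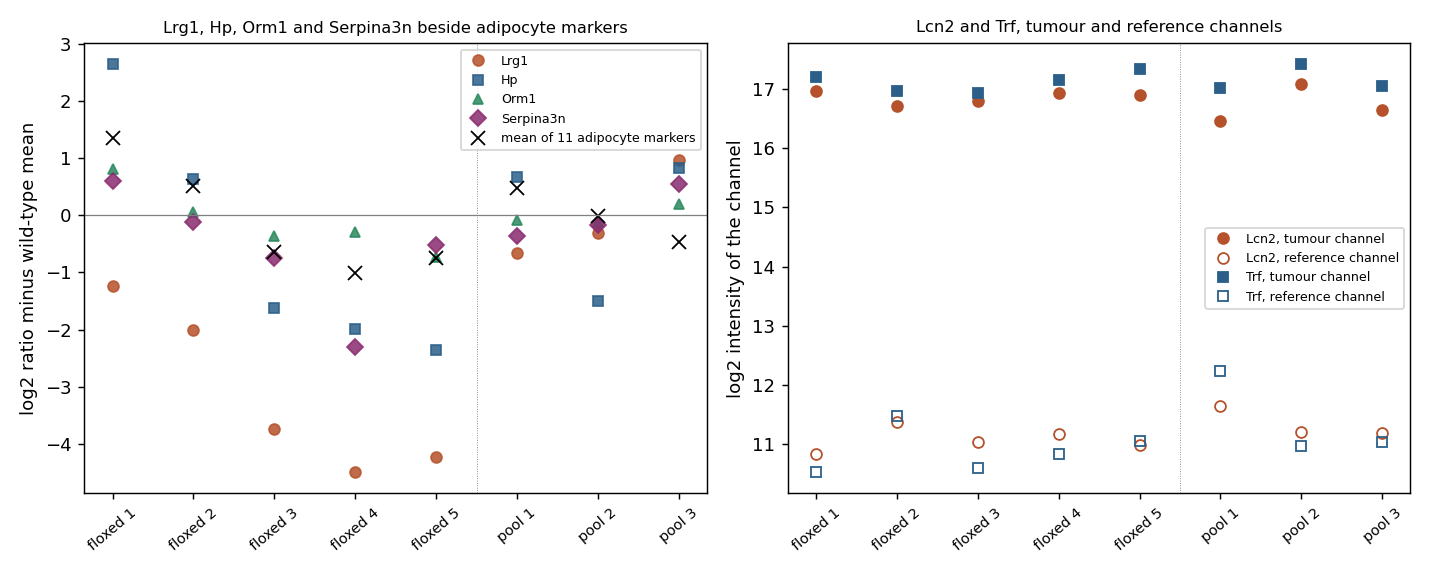
Left, log2 ratio minus the wild-type mean for Lrg1, Hp, Orm1 and Serpina3n and for the mean of 11 adipocyte markers in each of the 8 samples; right, log2 intensity of Lcn2 and Trf in the tumour channel (filled) and the reference channel (open) of each array. Floxed tumours 1 and 2 carry the highest floxed values of the 4 genes and of the adipocyte markers, as they do for other marker lists that are not plotted, while among the pools the adipocyte mean is lowest in pool 3. The reference channel of Trf is highest on the array of pool 1, at 12.24.

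Serpina3n encodes a secreted serine protease inhibitor, an orthologue of human alpha-1-antichymotrypsin that inhibits granzyme B and other proteases. It was 3.996, 3.26, 2.64, 1.08 and 2.87 in the floxed tumours and 3.02, 3.22 and 3.93 in the pools. Floxed tumour 4 was far below the rest and floxed tumour 1 was above every pool. The reference-channel SD of Serpina3n was at the 94.9th percentile of kept probes, with the lowest log2 intensity, 8.69, on the array of floxed tumour 4. The difference was -0.62 (SE 0.56, 95% interval -1.87 to 0.64, adjusted p = 0.925 by limma), and it was -0.20 without floxed tumour 4 and -0.35 without pool 3. Within slides it was -0.98 with pool 3, -1.04 with pool 1 and 0.78 with pool 2. Of 18 genes of the Serpina cluster around it 6 were measured, 2 lower and 4 higher in the floxed group, with 0 passing the adjusted or the unadjusted threshold. Serpina3f was 2.87, 1.47, 0.12, 0.75 and 0.16 in the floxed tumours and -0.07, -0.0039 and -0.36 in the pools, and Serpina3g had its top value, 2.32, in floxed tumour 1, with the rest of that group between -1.39 and 0.48. Both were highest in floxed tumour 1, as Serpina3n was, and among the pools lowest in pool 3. Serpina3m (0.49), Serpina1b (2.60) and Serpina10 (0.53) were instead highest among the pools in pool 3, as Serpina3n was.

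Itih4 encodes a heavy chain of the inter-alpha-trypsin inhibitor family, plasma proteins that bind hyaluronan or are cut by kallikrein. It was 0.31, -0.13, 0.03, -0.02 and -0.05 in the floxed tumours and 0.06, -0.09 and 0.14 in the pools. Every sample lay close to the reference level and the groups overlapped fully. The raw tumour signal of Itih4 was 257 to 430 intensity units over a background of 45.0 to 67.5, below the array medians of 642 to 891. Its reference-channel SD was at the 93.5th percentile of kept probes. The difference was -0.0047 (SE 0.15, 95% interval -0.34 to 0.33, adjusted p = 0.999 by limma).

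LBP, the lipopolysaccharide-binding protein, hands bacterial lipid to CD14 and the TLR4 receptor complex. Lbp was 0.13, 1.95, 2.02, 1.92 and 1.31 in the floxed tumours and 1.61, 1.63 and 3.15 in the pools. Floxed tumour 1, the highest floxed sample for Hp, Orm1, Orm2, Lrg1 and Serpina3n, was the lowest of the 8 for Lbp, and pool 3 was the highest. The difference was -0.66 (SE 0.50, 95% interval -1.80 to 0.47, adjusted p = 0.922 by limma) and was -0.15 without pool 3 and -0.33 without floxed tumour 1. Of its partners, Cd14 had a difference of -0.96 (SE 0.41, adjusted p = 0.922 by limma) and Tlr4 of -0.58 (SE 0.37). Pool 3 was the highest of the 8 samples for both, at -0.49 and -0.36.

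Lcn2, Trf and Cp handle iron. Lipocalin 2, the product of Lcn2, binds bacterial siderophores and so withholds iron. It was 6.13, 5.33, 5.74, 5.74 and 5.90 in the floxed tumours and 4.81, 5.87 and 5.46 in the pools. Pool 1 was the lowest and the rest overlapped. The difference was 0.38 (SE 0.26, 95% interval -0.20 to 0.97, adjusted p = 0.922 by limma), and it was 0.10 without pool 1 and 0.63 without pool 2.

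Trf encodes transferrin, the carrier that delivers iron to cells and is also a milk protein in rodents. It was 6.67, 5.48, 6.33, 6.31 and 6.28 in the floxed tumours and 4.78, 6.45 and 6.00 in the pools. Pool 1 and floxed tumour 2 were the lowest samples, as they were for Lcn2. The difference was 0.47 (SE 0.38, 95% interval -0.39 to 1.33, adjusted p = 0.923 by limma), and it was -0.01 without pool 1 and 0.82 without pool 2.

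For Trf the reference channel varied more over the arrays than the tumour channel, and for Lcn2 the spreads of the channels were closer to each other. The tumour-channel log2 intensity spanned 0.62 for Lcn2 and 0.50 for Trf over the 8 arrays, and all 8 readings of both came from the low-gain scan that the scanner adds for bright spots. Lbp and Cp were each read from that scan on 6 of the 8 arrays. The reference channel spanned 0.81 for Lcn2 and 1.71 for Trf, with SDs of 0.25 and 0.55 at the 95.2nd and 99.5th percentiles of kept probes. With the tumour channel alone the differences were 0.13 for Lcn2 and -0.05 for Trf, the second with its sign turned. Over the 8 arrays the ratios of Lcn2 and Trf had a Pearson correlation of 0.975, given as a description of 2 ratios that share arrays, scans and the reference RNA.

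The Lcn2 and Trf probes both cross introns, Lcn2 over 245 bases at chr2:32392828-32393072 and Trf over 616 bases at chr9:102929342-102929957 (mm7, minus strand for both). They are shown because the reading of both genes turns on these single probes.
Lcn2 probe: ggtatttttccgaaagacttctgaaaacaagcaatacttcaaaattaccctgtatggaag
Trf probe: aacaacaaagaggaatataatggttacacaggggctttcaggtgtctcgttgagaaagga

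Ceruloplasmin, the product of Cp, is a copper-carrying ferroxidase that oxidises iron as it leaves cells through ferroportin. Cp was -1.99, -1.66, -2.70, -1.48 and -2.12 in the floxed tumours and -1.94, -1.55 and -1.09 in the pools. All 8 samples were below the reference, with pool 3 the highest and floxed tumour 3 the lowest. The difference was -0.46 (SE 0.30, 95% interval -1.13 to 0.21, adjusted p = 0.922 by limma), and it was -0.24 without pool 3 and -0.28 without floxed tumour 3. Within slides it was -1.09 with pool 3, -0.44 with pool 2 and 0.14 with pool 1. Slc40a1, which encodes ferroportin, had a difference of -0.87 (SE 0.57), and Heph, a membrane ferroxidase related to ceruloplasmin, of -0.78 (SE 0.58). Floxed tumour 3 was the lowest of the 8 samples for both, at -0.57 and -0.10, as it was for Cp. Of 20 genes of iron storage and handling 17 were measured, 11 lower and 6 higher, with a median difference of -0.03. By limma 0 passed the adjusted threshold and 1 was lower at the unadjusted one, beside 2.96% of all probes.

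**Figure D3:**
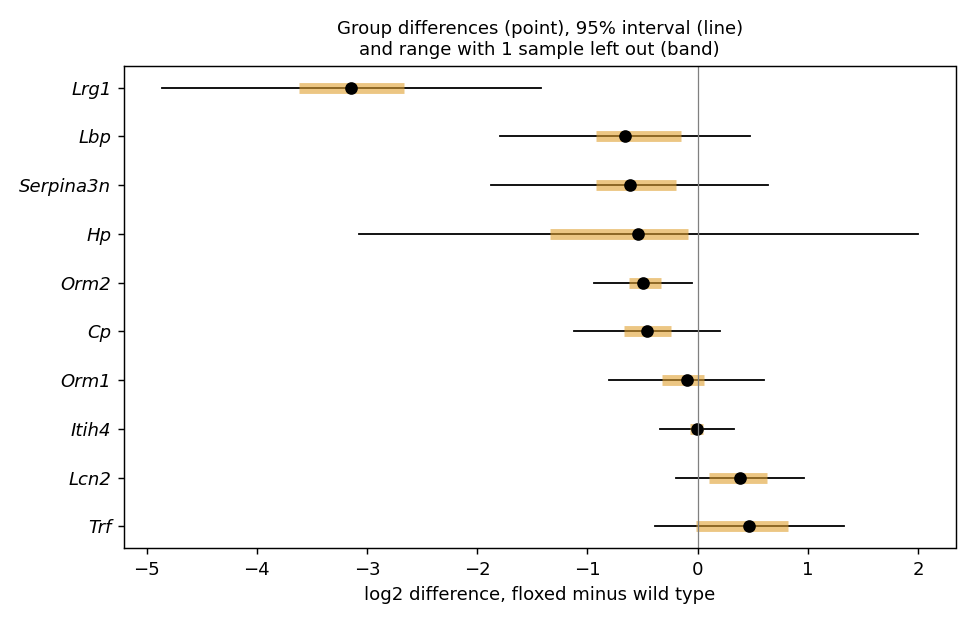
Difference in log2 ratio, floxed minus wild type, for the 10 genes (points), with the 95% interval of the limma fit (lines) and the range when 1 of the 8 samples is left out (bands). The interval lies below 0 for Lrg1 (-4.86 to -1.42) and Orm2 (-0.94 to -0.05) and spans 0 for the other 8 genes.

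The slides gave different pictures of the 10 genes. On the slide of pool 3 the median difference over the genes was -0.91, on that of pool 1 -0.26, and on that of pool 2, whose only floxed sample was tumour 1, 0.23. Pool 3 was the highest pool for 8 of the 10 genes and the highest of all 8 samples for 4: Lrg1, Orm2, Lbp and Cp. For Lcn2 and Trf pool 2 was the highest pool.

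**Figure D4:**
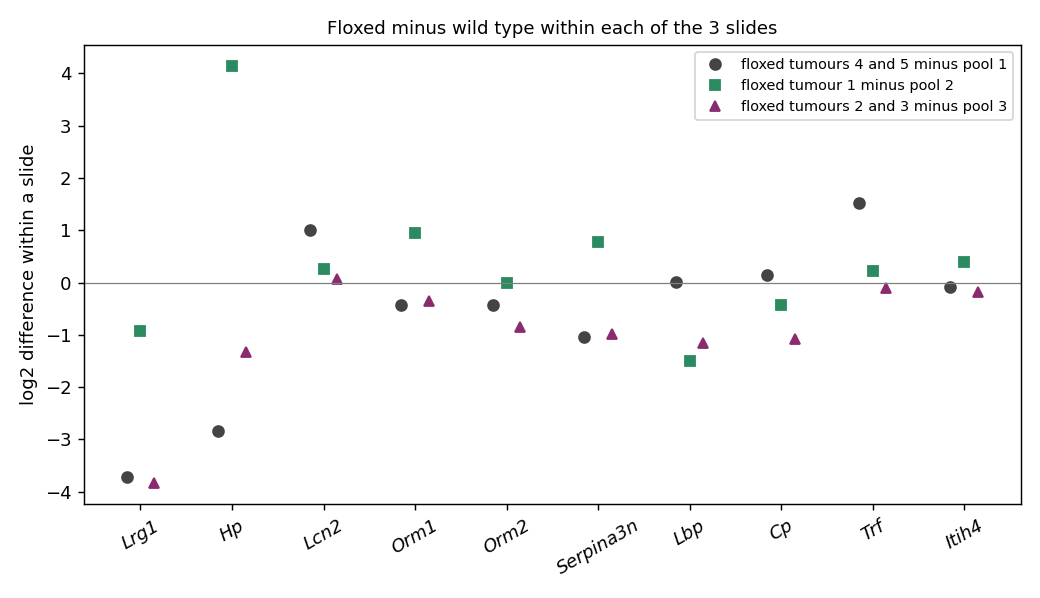
Floxed minus wild-type difference in log2 ratio within each of the 3 slides, for the 10 genes, with 1 wild-type pool and 1 or 2 floxed tumours per slide and no test. Lrg1 is below 0 on each slide (-3.84, -0.93 and -3.71), while Hp runs from -2.83 to 4.15.

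The genes most like Lrg1 were ranked by the Pearson correlation of their ratios over the 8 arrays among 21453 genes. Akr1c18, a hydroxysteroid dehydrogenase that inactivates progesterone, was first (0.975), followed by Zfp251 (0.960), Htra3, a secreted serine protease (0.951), a transcript named only by its Ensembl identifier (0.950) and Acsbg1, an acyl-CoA synthetase (0.944). Of the other 9 acute phase genes, Orm2 was 7th (0.943), Serpina3n 649th (0.751), Hp 1803rd (0.641) and Orm1 2251st (0.608). The correlations of Lcn2 and Trf with Lrg1 were -0.32 and -0.27. After the group means were removed, Hp, Orm1, Orm2 and Serpina3n correlated with Lrg1 at 0.886, 0.884, 0.882 and 0.848, against -0.20 for Lbp. All are descriptions over 8 arrays that share the reference RNA.

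The wider acute phase programme was represented by 36 other positive acute phase genes, of which 26 were measured, 18 lower and 8 higher in the floxed tumours. Limma called 0 of them at the adjusted threshold and 6 lower at the unadjusted one, beside 2.96% of all probes, with a median difference of -0.50. The mean ratio over the 26 genes was -0.39 to 0.44 in the floxed tumours and 0.20, 0.07 and 1.73 in pools 1 to 3, so only pool 3 lay outside the floxed range. Saa2, a serum amyloid A apolipoprotein, was -0.44, -0.51, -0.13, -0.57 and -0.62 in the floxed tumours and 1.61, 1.93 and 5.03 in the pools, and its groups did not overlap. Its difference was -3.31 (SE 0.66, adjusted p = 0.902 by limma). Fgg, a fibrinogen chain, had a difference of -2.72 (SE 1.05) and C4b, a complement component, of -1.75 (SE 0.75), each with pool 3 the highest sample, at 6.68 and 3.65. Saa2 and Fgg were each above background on 6 of 8 arrays, so some of their ratios rest on dim spots. C3, the central complement component, had a difference of -0.48, and Saa3 of -0.65 with pool 3 at -1.10 and the other 7 samples between -3.26 and -2.84. Of the negative acute phase genes, which fall in the liver response, 5 of 10 were measured and 0 passed the adjusted test, with a median difference of 0.12.

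The inducers and their transcription factors differed among themselves. Of 21 measured cytokine and receptor genes out of 25, 13 were lower and 8 higher. By limma 0 passed the adjusted threshold and 2 were lower at the unadjusted one, beside 2.96% of all probes. Osmr, the receptor subunit for oncostatin M, was between -2.78 and -1.81 in the floxed tumours and was -1.35, -1.03 and 0.38 in the pools, with no overlap and a difference of -1.57 (SE 0.38, adjusted p = 0.922 by limma). Il6st, which encodes gp130, had a difference of -0.24 (SE 0.19), Il6ra of 0.01 (SE 0.22) and Il6 of 0.35 (SE 0.34). Of 26 transcription factor and feedback genes 25 were measured. Cebpd, a C/EBP factor of the acute phase response, was between -3.86 and -3.06 in the floxed tumours and -1.88, -1.28 and -0.34 in the pools, a difference of -2.30 (SE 0.33, adjusted p = 0.238 by limma). Cebpb had a difference of -0.08 (SE 0.27) and Socs3, the feedback inhibitor induced by STAT3, of -0.17 (SE 0.16).

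Neutrophils carry lipocalin 2 and LRG1 in their granules, and 10 of 20 neutrophil markers were measured. Camp, a granule antimicrobial peptide, was above background on 0 of 8 arrays and Ngp on 1. The mean ratio of the measured markers was 0.22 to 1.77 in the floxed tumours and 0.74 to 1.76 in the pools, so the groups overlapped. Of the 10 markers 7 were lower and 3 higher in the floxed group, with a median difference of -0.36, 0 past the adjusted threshold by limma and 1, Prtn3 (-0.78), lower at the unadjusted one, beside 2.96% of all probes. S100a8 had a difference of -1.57 (SE 0.72), with 4 of 5 floxed tumours below all 3 pools. S100a8 and S100a9 were highest among floxed tumours in tumour 2, which had the lowest floxed ratio for Lcn2. The Lcn2 reference channel was also highest there among floxed arrays, at 11.38. In the tumour channel alone, its Lcn2 log2 intensity was 16.71, against 16.79 to 16.97 in the other floxed tumours. Its raw Lcn2 tumour signal, 127115 intensity units, was the highest of the floxed tumours. All 16 macrophage markers were measured, 6 lower and 10 higher. The part of these cells in the values above was not tested.

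Promoters of 6 of the 10 genes were in the RefSeq table, with 7 starts since Cp has 2. They were searched on both strands, in the 250 bases before the start, for the STAT pattern TTCNNNGAA and the C/EBP pattern TTGCNNAA, which do not overlap in any of the matches found. The STAT pattern was found in 1 gene, Itih4 (TTCCGAGAA, 51 to 43 bases before the start), beside 7.02% of 32851 promoters of the same length. The C/EBP pattern was found in 3 genes, Lcn2, Orm2 and Cp by its second start, beside 9.56% of promoters. The Lrg1 window held neither pattern, which says only that these letters are not in it. Itih4, the gene with the STAT match, is shown with that match in capitals.
Itih4 promoter: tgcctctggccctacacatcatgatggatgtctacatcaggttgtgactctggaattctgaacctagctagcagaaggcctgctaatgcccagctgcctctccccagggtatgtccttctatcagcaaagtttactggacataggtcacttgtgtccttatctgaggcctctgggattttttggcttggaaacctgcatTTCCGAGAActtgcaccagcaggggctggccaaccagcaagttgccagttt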

How the data were processed

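Tumour RNA from 8 samples, 5 floxed and 3 wild-type pools, was hybridised to Agilent two-colour arrays of design 014868. Per the file headers, spots were read by Agilent Feature Extraction 9.5.3.1 as mean intensity, local background and processed intensity, and probe coordinates are in mm7. The authors deposited a value table of log2 ratios, with column medians of 0.0028 to 0.012, whose correlation with the ratios computed here was 0.991 to 0.996 over kept probes, in the same direction. The sources used here do not state its scaling or centring.

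Here mean signals were background-corrected by normexp with an offset of 50 and normalized by loess within each array in limma 3.58.1 (R 4.3.3). Control spots had weight 0, flagged spots were left out, spots of 1 probe were averaged, and a probe was kept if the scanner flagged its tumour channel as well above background in 3 or more of the 8 arrays. That left 31302 probes. Group differences were tested two-sided with lmFit and eBayes over all kept probes, with Benjamini-Hochberg adjustment and a threshold of 0.05. A gene on a list was read by its brightest kept probe. Precision is limited by how few arrays there are. The 10 genes and all gene lists were chosen with earlier results of these data known. The genes named beside them were chosen by role, as receptors, partners, inducers or markers, and those most like Lrg1 by correlation. Others, such as Saa2 and Serpina3f, were chosen after their values were seen. Samples were grouped by the genotype in their titles, and floxed replicate numbers are names only. The alternatives were other background corrections, signals, normalizations, filters, probe rules, slide blocks, variance models, the deposited table and each sample left out.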

Additional observations from a re-analysis of the deposited data

Results flagged for a closer look

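Among the 64 sets of values checked for a sample far from its group, in the floxed tumours only, 2 were flagged, beside 3.2 that chance would give. Both were neutrophil and myeloid calcium-binding proteins in floxed tumour 2. S100a8 was -1.20 there, against -4.00 to -3.62 in the other 4 floxed tumours. S100a9 was 4.97, against 0.99 to 2.10. None of the 10 acute phase genes was flagged.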

How the results depend on the processing

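No alternative brought any of the 10 genes past the adjusted threshold. The number of probes past it over the whole array, 0 in the reported fit, was 1 with processed signals (Wfdc5), 1 with the mean of a gene's probes (Dppa1) and 1 with a gene-level fit (Dppa1), and 0 to 2 with 1 sample left out. Those calls were Htr5b and Dppa1 without floxed tumour 4, Stat3 without pool 1, 2410076I21Rik without pool 2, and Saa1 and Saa2 without pool 3. The Saa1 call (-2.19) was by a probe other than the brightest of its 2 kept probes. That brightest probe had a floxed mean of -1.71, against -1.30 and -0.95 in pools 1 and 2. The median difference over the 10 genes was 0.23 on the slide of pool 2, and -0.52 to -0.14 with 1 sample left out. Signs turned for Itih4 with no background correction (0.0064), processed signals (0.0050), the slide as a fixed block (0.0087) and the deposited table (0.0076), and its range with 1 sample left out was -0.074 to 0.049. Trf turned with the tumour channel alone (-0.046) and ran from -0.013 to 0.82 with 1 sample left out, and Orm1 ran from -0.33 to 0.058. Within slides, signs turned for Hp (4.15), Orm1 (0.94), Serpina3n (0.78) and Itih4 (0.40) with pool 2, for Cp (0.14) and Lbp (0.0099) with pool 1, and for Trf (-0.096) with pool 3. Lrg1, Orm2 and Lcn2 kept their sign under every alternative that gave them a value. The size of the Orm2 difference, -0.50 as reported, was -0.64 with no background correction and -1.10 with processed signals. Probes at the unadjusted threshold, 925 lower and 582 higher as reported, were 587 and 310 when arrays were only centred on their medians, 1660 and 1221 without pool 2, and 389 and 271 without pool 3. The filter on all 8 arrays left out Orm1 and Orm2, whose dim spots limit their ratios. By replicate number, no paired analysis was possible because the numbers of single tumours and of pools name samples only. Samples could be matched by slide, and with the slide as a fixed block 1313 probes were lower and 812 higher at the unadjusted threshold, with 3 of the 10 genes lower. The causes of these shifts were not tested.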

Other observations

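Pool 3 was the highest pool in most lists of secretory and epithelial genes. Wap, a whey milk protein, was 5.80 there, against 2.19 and 2.17 in pools 1 and 2 and 0.19 to 1.88 in the floxed tumours. Csn2, which encodes beta-casein, was 8.84 in pool 3, against 5.33 and 6.88 in the other pools and 3.55 to 7.19 in the floxed tumours. Of 15 measured milk protein and secretory genes 11 were lower and 4 higher in the floxed group, with 0 past the adjusted threshold by limma and 3 lower at the unadjusted one, beside 2.96% of all probes. All 12 skeletal muscle markers had a higher floxed mean, with 0 past the adjusted threshold and 1, Pgam2, higher at the unadjusted one, beside 582 of 31302 probes. Their mean ratio was 0.52 in floxed tumour 5, -1.17 to -0.48 in the other 4 floxed tumours and -1.16 to -0.96 in the pools, so floxed tumour 5 stood above the rest.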
